A study of Mus musculus with 3 samples.

Results

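Bmp ligands and the proteins that hold them back were followed across mouse back skin through 9 genes, *Bmp2*, *Bmp3*, *Bmp4*, *Bmp5*, *Bmp7*, *Nog*, *Grem1*, *Fst* and *Bambi*. They were chosen by name, and 9 of 9 had a row among the 19165 genes of the deposited single-cell table. Skin of male C57BL/6 fetuses at E13.5 and E16.5 and of newborn males at P0 was sequenced as 1 droplet library per stage, each made from the pooled skin of several animals, with no allele or agent named for any of them. E13.5 and E16.5 skin was digested with trypsin and P0 skin with collagenase IV, so stage, library, pool and digestion cannot be told apart. The libraries held 5962, 5208 and 5065 cells with 53334740, 66239195 and 46599806 unique molecular identifiers (UMIs, each the tag of 1 captured RNA molecule), and the median cell had 7066.5, 11021 and 6797 UMIs. With 1 library per stage no difference could be tested over animals, so levels are given as CPM, the UMIs of a gene per 1000000 UMIs summed over the cells of a group, with exact 95% Poisson intervals that cover counting error only.

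Bone morphogenetic proteins (Bmps) are secreted signals that bind type I and type II serine/threonine kinase receptors, which phosphorylate Smad1, Smad5 and Smad9, and cells respond by transcribing genes such as those of the Id and Msx families. Noggin (*Nog*) and gremlin 1 (*Grem1*) bind Bmps outside the cell, follistatin (*Fst*) binds activins and some Bmps, and *Bambi* encodes a membrane protein that resembles a type I receptor without its kinase. In skin the pathway is known for restraining the formation of hair placodes, the epithelial thickenings from which follicles grow, and for the later differentiation of the hair shaft, while dermal cells gather under each placode as a condensate that becomes the dermal papilla.

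Cells were clustered within each library without the 67 genes of the Bmp pathway lists, and clusters were named from marker genes that included none of the 9. In stage order, dermal-like cells numbered 1467, 3292 and 2589, and epithelial-like cells 208, 812 and 1316. Dermal-like cells held 31.1%, 55.9% and 36.4% of all UMIs of their library, and epithelial-like cells 4.34%, 18.6% and 37.6%. Cells left unnamed, or holding the markers of more than 1 lineage, made up 25.4% of the first library, 2.73% of the second and 6.65% of the third. RNA of dermal cells was found widely at E13.5: the summed level of 10 dermal markers in erythroid-like cells was 70.7% of that in dermal-like cells, in Schwann-like cells 41.5% and in epithelial-like cells 10.1%, while at P0 it was 3.72% in epithelial-like cells. The part of this RNA in the levels below was not tested. The libraries shared 44, 41 and 32 cell barcodes pairwise.

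Upstream sequence is shown for *Bmp4* and *Grem1*, because both had higher levels in upper than in deep dermis at E13.5, as described below. RefSeq promoter sequences (GRCm38.p6) matched 3 of the 9 genes. The 250 bases before the annotated start of each gene are given 5′ to 3′ on its own strand, chr14:46390670-46390919 (minus strand) for *Bmp4* and chr2:113758649-113758898 (minus strand) for *Grem1*, with GGGCGG on the strand shown in capitals.
Bmp4: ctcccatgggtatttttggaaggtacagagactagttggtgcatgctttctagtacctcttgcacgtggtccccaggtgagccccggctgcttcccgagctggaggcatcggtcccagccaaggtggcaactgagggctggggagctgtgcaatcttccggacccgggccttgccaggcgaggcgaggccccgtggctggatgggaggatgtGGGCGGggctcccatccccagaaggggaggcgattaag
Grem1: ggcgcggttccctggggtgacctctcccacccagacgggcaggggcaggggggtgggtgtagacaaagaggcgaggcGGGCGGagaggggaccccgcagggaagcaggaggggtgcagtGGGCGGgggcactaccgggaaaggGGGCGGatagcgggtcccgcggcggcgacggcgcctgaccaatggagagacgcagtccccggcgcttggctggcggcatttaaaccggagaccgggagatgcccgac
GGGCGG was searched on both strands and had 1 match for *Bmp4*, starting 38 bases before the start of the gene, and 3 for *Grem1*, starting 173, 131 and 107 bases before it; 32.7% of the 32851 promoters of the RefSeq table hold it. TATAAA and CTTTGA, searched in the same way, had 0 matches in both and are found in 12.4% and 13.8% of promoters. The *Bmp4* stretch was 63.2% G and C with 11 CpG dinucleotides and the *Grem1* stretch 72.0% with 24, where the median promoter had 52.4% and 6. A match is given as a description of the letters only.

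Among the ligands, *Bmp4* (chromosome 14, 46383520 to 46390669, GRCm38) was found in several mesenchymal lineages at E13.5. Cartilage-like cells had 195 CPM (173 to 218), tendon-like cells 128 CPM (116 to 140), dermal-like cells 58.2 CPM and epithelial-like cells 14.3 CPM. Erythroid-like cells, which carried dermal markers as given above, had 51.7 CPM. At E16.5 dermal-like cells held 89.2% of all *Bmp4* UMIs of the library, and at P0 they held 65.4% and epithelial-like cells 27.8%. Dermal-like cells thus held most of its UMIs at both later stages, with an epithelial fraction at birth.

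*Bmp7* (chromosome 2, 172868012 to 172940321) had its highest level in epithelial-like cells among the lineages of each stage. Groups within the dermal-like cells had more, namely condensate-like cells at E16.5 (195 CPM) and papilla-like cells at P0 (505 CPM), described below. Over the 3 stages in order, epithelial-like cells had 135, 137 and 133 CPM, and the intervals overlapped. The second level of each stage was found in cartilage-like cells at E13.5, with 88.6 CPM, and later in melanocyte-like cells, with 100.2 CPM before and 57.2 CPM at birth. The epithelial markers of those melanocyte-like cells summed to 11.1% and 37.7% of the level in epithelial-like cells, and their part in the *Bmp7* level was not tested.

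*Bmp2* (chromosome 2, 133552159 to 133562885), a ligand of placode and hair matrix keratinocytes, had its highest level in epithelial-like cells at each stage, with 28.5, 95.7 and 50.5 CPM. At E13.5 cartilage-like cells followed at 25.2 CPM (17.9 to 34.5), an interval that overlapped the epithelial one (22.1 to 36.3), so these neighbours in the order did not differ beyond counting error. Pericyte or smooth muscle-like cells came second at both later stages, with 18.7 and 31.7 CPM, below the epithelial interval each time.

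*Bmp3* (chromosome 5, 98854415 to 98884396), a family member that is known to oppose other Bmps, was low in the E13.5 library at 2.42 CPM, where cartilage-like cells had the most (18.8 CPM). In the later libraries the dermal-like cells held 88.5% and 86.9% of its UMIs. *Bmp5* (chromosome 9, 75775364 to 75900310), known from skeletal development, went the other way. It had 379 UMIs at E13.5, with the highest level in tendon-like cells (24.9 CPM), and 31 UMIs at E16.5 and 9 at P0, of which 20 and 7 were in pericyte or smooth muscle-like cells. Epithelial-like cells had 0 *Bmp5* UMIs at E16.5, which allows a level of up to 0.244 CPM when 3 UMIs are taken as the limit of a count of 0.

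**Figure D1:**
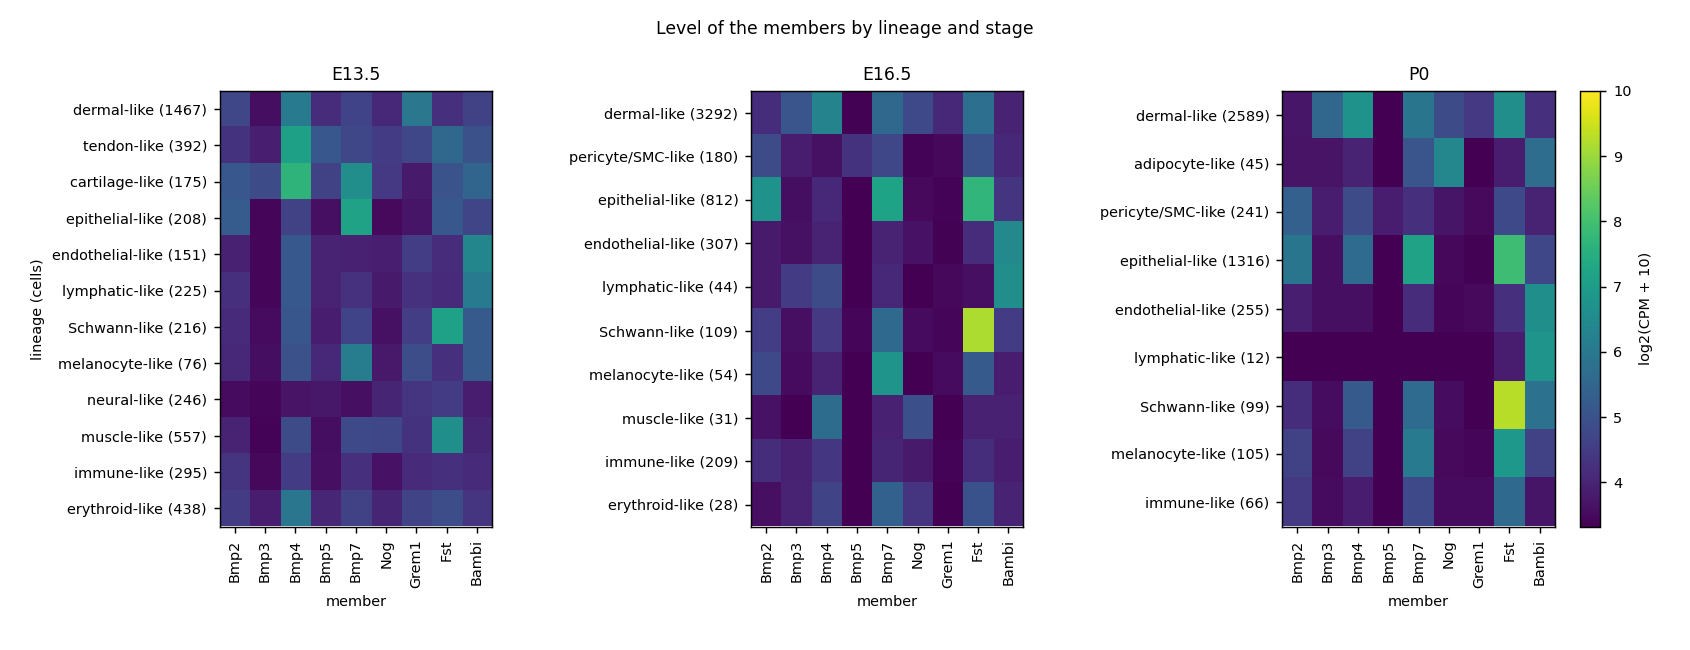
Level of each member, as log2(CPM + 10), in the named lineages of the E13.5, E16.5 and P0 libraries, with the number of cells of each lineage in parentheses and SMC for smooth muscle cells. Fst is brightest in Schwann-like cells at each stage (131, 574 and 617 CPM), Bmp7 stands out in epithelial-like cells and Bambi in endothelial-like cells; the P0 lymphatic group holds 12 cells.

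The secreted antagonists had different sources. *Nog* (chromosome 11, 89300638 to 89302332) was highest in muscle-like cells at E13.5 (16.8 CPM) and had 12.59 CPM in tendon-like and 6.99 CPM in dermal-like cells. At E16.5 the dermal-like cells had 17.6 CPM and held 90.2% of its UMIs, and the 31 muscle-like cells had 20.9 CPM with an interval of 9.01 to 41.1. At P0 the 45 adipocyte-like cells had 74.7 CPM (55.9 to 97.7) from 53 UMIs and the dermal-like cells 18.7 CPM. Epithelial-like cells had 1.30, 1.30 and 1.09 CPM in stage order, which at E13.5 was the lowest level of any lineage.

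*Grem1* (chromosome 2, 113746164 to 113758646) was the antagonist of the early dermis. Dermal-like cells had 52.9 CPM at E13.5 and held 62.0% of its UMIs, and melanocyte-like cells came second at 19.8 CPM. Later the dermal-like level was 7.08 and 11.6 CPM, which was still the highest of any lineage, and dermal-like cells held 91.3% and 92.5% of the UMIs. Their share of all UMIs was 31.1%, 55.9% and 36.4% in stage order. At E13.5 a further 644 cells with 10 of 10 dermal markers were left unnamed.

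*Fst* (chromosome 13, 114452290 to 114458951) was highest in Schwann-like cells, the glia of skin nerves. Their level was 131 CPM (116 to 148) in the first library, 574 CPM (535 to 615) in the second and 617 CPM (556 to 684) in the last. Muscle-like cells came second at E13.5 with 90.6 CPM and held 36.8% of the UMIs, more than the 3.99% of epithelial-like cells. Epithelial-like cells were second at the later stages, with 199 and 234 CPM, and held 43.1% and 59.1% of the UMIs. The epithelial markers of Schwann-like cells summed to 15.8% and then 8.11% of the epithelial-like level at these stages. The part of epithelial RNA in their *Fst* level was not tested.

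*Bambi* had its highest levels in the 2 endothelial lineages at each stage. In stage order, endothelial-like cells had 73.3, 78.6 and 90.03 CPM, and lymphatic endothelial-like cells 56.0, 88.0 and 99.002 CPM. The intervals of these 2 groups overlapped at each stage, and both levels, taken without their intervals, were above that of every other lineage. The P0 lymphatic level came from 12 cells, and Schwann-like cells had 47.0 CPM in that library. At P0 epithelial-like cells nevertheless held 33.7% of the *Bambi* UMIs, against 30.6% in endothelial-like cells, since the P0 library had 1316 of the former and 255 of the latter.

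The question of which compartment carries each gene was put by comparing dermal-like with epithelial-like cells within each library. A gene was compared where both groups together had at least 50 UMIs, and called where the log2 difference of CPM + 10 was at least 2-fold. *Bmp3* at E13.5 and *Bmp5* at the later stages had too few UMIs to be compared here and among dermal-like cells, *Bmp2* also between the dermal layers at P0. Between epithelial groups *Bmp3*, *Bmp5*, *Nog* and *Grem1* had too few at every stage, and *Bmp4* and *Bambi* at E13.5. At E13.5, 2 of 8 members were called higher in dermal-like cells, where 7.89% of the 11426 genes compared were, and 1 was called lower, where 5.07% were. *Grem1* was at 52.9 against 3.03 CPM, a log2 difference of 2.27 (1.95 to 2.49). *Bmp4* differed by 1.49 (1.17 to 1.79), and *Bmp7*, at 15.6 against 135 CPM, by -2.51 (-2.69 to -2.32). The other 5 members ran from -0.90 (*Fst*) to 0.59 (*Nog*). The *Bmp4* difference was 0.89 when sub-clusters of mixed identity were kept.

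At E16.5, 3 of 8 members were called higher in dermal-like cells, where 8.20% of 12692 genes were, and 3 were called lower, where 4.60% were. The dermal side held *Bmp4* at 69.6 against 6.67 CPM (2.25, 2.11 to 2.38), *Bmp3* at 23.6 against 1.95 CPM (1.49, 1.37 to 1.59) and *Nog* at 17.6 against 1.30 CPM (1.29, 1.18 to 1.37). The epithelial side held *Bmp2* at 95.7 against 8.43 CPM (-2.52, -2.62 to -2.42), *Fst* at 199 against 44.5 CPM (-1.94) and *Bmp7* at 137 against 38.0 CPM (-1.62). *Grem1* (0.71) and *Bambi* (-0.33) were not called. *Bmp3* was not called when each cell was assigned by its own marker shares without clustering (0.53), nor without the 423 condensate-like cells described below (5.51 against 1.95 CPM, 0.38). *Bmp4* was at 1.29 without them.

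At P0, 4 of 8 members were called higher in dermal-like cells, where 7.87% of 12093 genes were, and 3 lower, where 5.46% were. *Bmp3* (1.94), *Nog* (1.37), *Bmp4* (1.11) and *Grem1* (1.07) were on the dermal side, and *Bmp2* (-2.21), *Fst* (-1.32) and *Bmp7* (-1.26) on the epithelial side, in the same directions as at E16.5. *Bambi*, at 9.09 against 16.8 CPM, differed by -0.49 and was not called. The *Bmp3* and *Bmp4* calls rested on the 195 papilla-like cells described below. In the remaining 2394 dermal-like cells *Bmp3* was at 4.24 CPM and *Bmp4* at 47.0 CPM, against 2.06 and 40.6 CPM in epithelial-like cells (0.24 and 0.17). Several of these values also moved with the naming of cells. At clustering resolution 0.5 *Bmp3* was at 0.40 and *Bmp4* at 0.32, with cells of at least 2500 genes *Bmp7* was at -0.05 and *Grem1* at 0.84, and by marker shares *Bmp3* was at 0.52.

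The 423 condensate-like cells of E16.5 and the 195 papilla-like cells of P0 were then compared with the other dermal-like cells of their library; no sub-cluster at E13.5 was named condensate-like. At E16.5 4 of 8 members were called higher, where 2.35% of 11980 genes were, and 0 lower, where 2.08% were. *Bmp3* was at 173 CPM (161 to 187) against 5.51 CPM, a log2 difference of 3.56 (3.45 to 3.67). *Bmp4* was at 391 CPM (372 to 411) against 30.7 CPM (3.30, 3.20 to 3.40). *Bmp7* was at 195 against 19.1 CPM (2.82, 2.70 to 2.94) and *Fst* at 143 against 32.6 CPM (1.85, 1.72 to 1.97). The antagonists *Nog*, at 8.52 against 18.7 CPM (-0.63), and *Grem1*, at 2.76 against 7.60 CPM (-0.46), had lower levels in condensate-like cells and were not called on the scale of CPM + 10, although the ratios of CPM were 0.456 and 0.363. With 1 CPM added both were called. For *Bmp2* (0.40) and *Bambi* (0.24) neither scale gave a call. Of the 874 *Bmp3* UMIs of all dermal-like cells, 692 lay in the condensate-like cells. The median log2 difference of the 8 members was 1.12 and that of all genes compared 0.05.

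The papilla-like cells of P0 had the same 3 ligands at still higher levels. There were 6 of 8 members called higher, where 5.33% of 10527 genes were, and 0 lower, where 3.32% were. *Bmp4* was at 684 CPM (641 to 729) against 47.0 CPM (3.61, 3.48 to 3.73). *Bmp7* was at 505 CPM (468 to 544) against 9.64 CPM (4.71, 4.56 to 4.86) and *Bmp3* at 399 CPM (367 to 434) against 4.24 CPM (4.85, 4.70 to 4.98). These were the largest differences of any member in any comparison made here. *Bambi* at 40.7 against 6.30 CPM (1.64), *Fst* at 195 against 78.4 CPM (1.22) and *Nog* at 50.1 against 15.9 CPM (1.21) were also called, *Nog* at 0.99 when each cell had the same weight. *Bmp2* (0.86) and *Grem1* (-0.56) were not. The median log2 difference of the 8 members was 1.43, and the median of all genes compared was itself shifted by 0.16. Across the alternatives that gave a value, the difference of *Bmp4* ran from 3.23 to 3.63 in condensate-like and from 3.37 to 3.84 in papilla-like cells.

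Per cell, *Bmp7* UMIs were found in 59.8% of condensate-like cells (55.0 to 64.5, exact binomial) and in 75.4% of papilla-like cells (68.7 to 81.3). Endothelial-like cells, a lineage with low levels of these ligands, had them in 7.49% and 7.45% of cells. Their median depth was 16418 and 9668 UMIs, against 8739 and 6039 UMIs in condensate-like and papilla-like cells. The low endothelial levels fix this contrast in advance, so it says nothing of condensate-like or papilla-like against other dermal-like cells. After thinning each cell to 3500 UMIs the *Bmp7* shares were 39.7% and 65.1%, against 1.63% and 0.784% in endothelial-like cells. *Bmp3* UMIs were found in 37.6% and 67.7% of condensate-like and papilla-like cells, and after thinning in 29.8% and 61.0%, against 0.651% and 0.392% of endothelial-like cells.

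**Figure D2:**
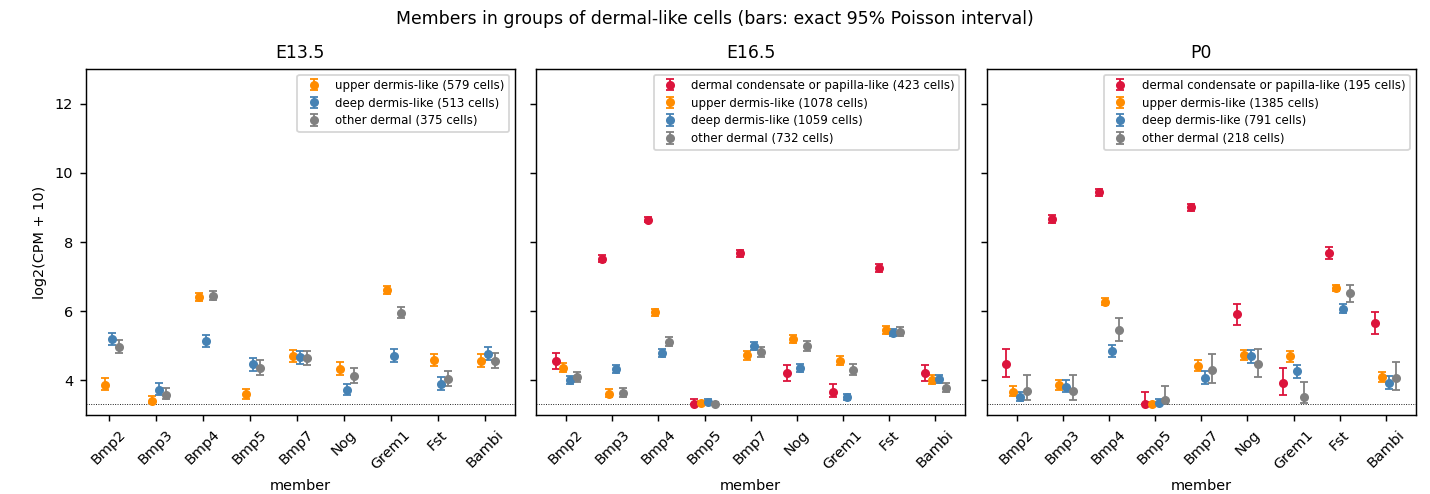
Level of each member as log2(CPM + 10) in the groups of dermal-like cells of each library, with exact 95% Poisson intervals as bars and the level of 0 UMIs as a dotted line. Bmp3, Bmp4 and Bmp7 of condensate-like and papilla-like cells lie above every other dermal group, while at E13.5 Grem1 is at 87.4 CPM in upper dermis-like and 16.2 CPM in deep dermis-like cells.

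The condensate-like cells of E16.5 were not uniform, and fell into 3 sub-clusters that differed in which member they carried. The sub-cluster of 200 cells, with 13 of 13 condensate markers at 2-fold or more, had *Bmp4* at 652 CPM, *Bmp3* at 375 CPM and *Bmp7* at 325 CPM, and *Fst* at 36.1 CPM, close to the other dermal-like cells. That of 180 cells, led by *Foxd1* and with 10 of 13 markers, had *Fst* at 233 CPM, *Bmp4* at 213 CPM and *Bmp7* at 92.7 CPM, but *Bmp3* at only 2.38 CPM (0.65 to 6.08). That of 43 cells, with 11 of 13 markers, also had *Fst* at 222 CPM, and *Bmp4* at 55.0 CPM. Its 14 *Bmp3* UMIs came from 1 cell. Thus high *Bmp3* and high *Fst* were in separate sub-clusters at this stage; the sub-clusters come from 1 library and the split was not tested.

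At P0 the 3 papilla-like sub-clusters had another arrangement. The sub-cluster of 101 cells, with 9 of 13 markers, had *Bmp4* at 960 CPM (888 to 1037), *Bmp7* at 662 CPM and *Bmp3* at 515 CPM. Its *Fst* level was 103 CPM and its *Nog* level 14.7 CPM. In that of 41 cells, the only one with 13 of 13 markers, *Bmp4* (693 CPM), *Bmp7* (559 CPM) and *Bmp3* (486 CPM) were found together with *Fst* at 451 CPM (387 to 522), *Nog* at 129 CPM (96.1 to 170) and *Bambi* at 98.7 CPM (70.2 to 135). These 41 cells held 51 of the 69 *Nog* UMIs and 39 of the 56 *Bambi* UMIs of all papilla-like cells, so that the calls for *Nog* and *Bambi* at P0 rested largely on them. The sub-cluster of 53 cells also had 9 of 13 markers but lower ligand levels, with *Bmp7* at 79.7 CPM, *Bmp4* at 46.5 CPM and *Bmp3* at 23.3 CPM.

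**Figure D3:**
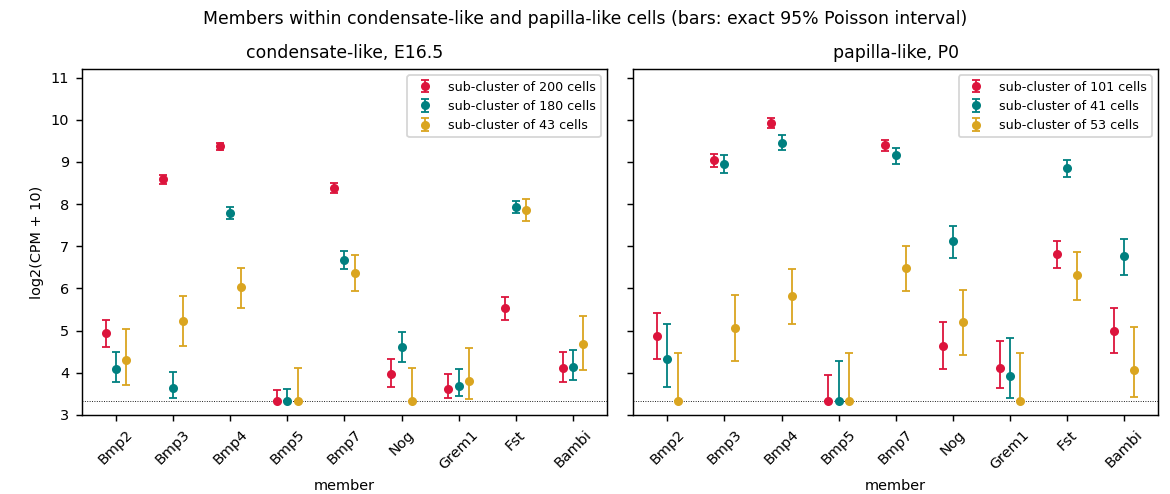
Level of each member as log2(CPM + 10) in the 3 sub-clusters of condensate-like cells at E16.5 and of papilla-like cells at P0, with exact 95% Poisson intervals. At E16.5 Bmp3 is high in the sub-cluster of 200 cells (375 CPM) and Fst in the other 2, whereas at P0 the sub-cluster of 41 cells has Bmp3 (486 CPM), Fst (451 CPM) and Nog (129 CPM) together.

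The ligands of the condensate were also met in small dermal groups that were named for other markers. At E16.5 a deep dermis-like sub-cluster of 35 cells had *Bmp3* at 207 CPM and *Bmp7* at 149 CPM, where the other deep dermis-like sub-clusters had at most 17.7 CPM and 21.6 CPM. At P0 an upper dermis-like sub-cluster of 60 cells had *Bmp4* at 464 CPM and *Fst* at 316 CPM, with *Bmp3* at 12.9 CPM. Their levels were known before these 2 groups were chosen for mention.

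The epithelial part of the follicle was compared with the other epithelial-like cells of each library. At E13.5 the 65 placode-like cells gave 3 members with enough UMIs, of which 2 were called higher, where 2.92% of 5830 genes were, and 0 lower, where 7.14% were. They were compared with 84 periderm-like cells and 59 cells nearest to the suprabasal epidermis list, and no group was named basal. *Krt14*, *Krt15* and *Krt5* of the basal epidermis list were among the leading genes of the placode-like cells. The part of epidermal layer in these differences was not tested. *Fst* was at 83.1 CPM (61.4 to 110) against 5.22 CPM, a log2 difference of 2.61 (2.08 to 3.02). *Bmp2* was at 74.6 CPM (54.2 to 100.1) against 12.8 CPM (1.89, 1.35 to 2.39). *Bmp7* was at 197 against 114 CPM (0.73, 0.41 to 1.05), a smaller difference than those of *Bmp2* and *Fst*. The placode-like cells carried dermal markers at 16.1% of the dermal-like level.

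At E16.5, 1 of 5 members was called higher in the 125 germ-like cells, where 0.822% of 9975 genes were, and 0 lower, where 1.94% were. *Bmp2* was at 313 CPM (286 to 341) against 62.6 CPM (2.15, 2.00 to 2.31), and 71.2% of germ-like cells had a *Bmp2* UMI, against 12.4% of the 89 periderm-like and 41.8% of the 598 other epithelial-like cells. After thinning each cell to 3500 UMIs the shares were 47.2%, 2.25% and 17.4%. The periderm-like group had 5 of 6 periderm markers, but also *Krt1* and *Krt10* of the suprabasal epidermis list among its leading genes. No group was named suprabasal at this stage. The median depth was 10916 UMIs in germ-like, 12737 UMIs in periderm-like and 13748.5 UMIs in the other cells. Among the latter, a sub-cluster of 176 cells with 5 of 8 placode or germ markers had *Bmp2* at 99.2 CPM. *Fst*, at 149 against 207 CPM (-0.45, -0.63 to -0.27), was higher outside the germ without reaching 2-fold. Most cells it was compared with were not periderm-like, unlike at E13.5, so the values do not show a change of *Fst* between stages. *Bmp7* (0.37), *Bmp4* (-0.25) and *Bambi* (-0.36) were not called.

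At P0 the 624 follicle cells had 3 of 5 members called higher, where 0.516% of 10469 genes were, and 0 lower, where 0.783% were. *Bmp4* was at 64.8 against 19.1 CPM (1.36, 1.18 to 1.54), *Bmp2* at 76.2 against 27.9 CPM (1.18) and *Fst* at 326 against 154 CPM (1.04), while *Bmp7* (0.72) and *Bambi* (0.60) were not called. All 3 calls depended on how the cells were divided. At resolution 0.5 *Bmp4* was at 0.89 and *Bmp2* at 0.44, and *Fst* was at 0.26 at resolution 2 and 0.54 when each cell had the same weight. The 692 other epithelial-like cells included 360 in 3 sub-clusters whose nearest marker list was that of the follicle sheath, with *Lhx2* and *Krt17* among their leading genes, and which had too few of its markers to be named. Without them, *Bmp4* was at 64.8 against 7.03 CPM (2.14), and *Bmp2* (0.63) and *Fst* (0.59) were not called.

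Within the P0 follicle each group carried its own set. The 228 hair matrix-like cells, the dividing cells that produce the hair, had *Bmp7* at 301 CPM (281 to 323), *Bmp2* at 206 CPM (189 to 223), *Fst* at 152 CPM and *Bmp4* at 139 CPM (125 to 154). In the 117 inner root sheath or hair shaft-like cells *Bmp4* was at 76.3 CPM and *Bambi* at 56.2 CPM (43.8 to 71.1), the highest *Bambi* level of any epithelial group, while *Bmp2* was at 30.5 CPM. Among the named groups, *Fst* was at 641 CPM (613 to 670) in upper follicle-like, 321 CPM in basal epidermis-like and 215 CPM in follicle sheath-like cells. The basal epidermis held a sub-cluster of 74 cells at 669 CPM (606 to 737), which overlapped the upper follicle, and one of 124 cells at 214 CPM. *Bmp2* was at 5.63 CPM in the follicle sheath and 10.5 CPM in the upper follicle, below the 59.3 CPM of the basal epidermis. So the P0 comparison of follicle with other epithelium averaged over groups with *Bmp2* from 5.63 to 206 CPM and *Fst* from 36.2 to 641 CPM.

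**Figure D4:**
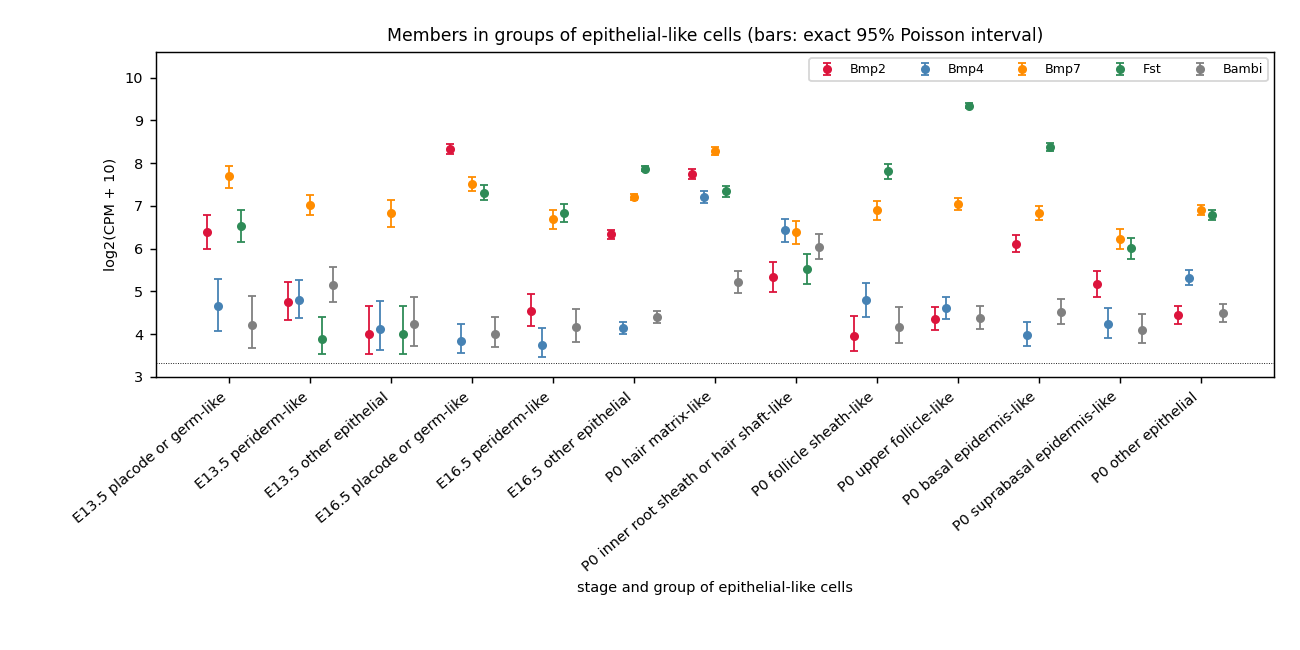
Levels of Bmp2, Bmp4, Bmp7, Fst and Bambi as log2(CPM + 10) in the groups of epithelial-like cells, with exact 95% Poisson intervals. Bmp2 is highest in E16.5 placode or germ-like (313 CPM) and P0 hair matrix-like cells (206 CPM), and Fst in P0 upper follicle-like cells (641 CPM).

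Outside the follicle, upper dermis-like cells were compared with deep dermis-like cells. At E13.5, 2 of 8 members were called higher in the upper dermis, where 2.29% of 10408 genes were, and 1 lower, where 1.95% were. *Grem1* was at 87.4 CPM (80.3 to 95.1) in 579 upper and 16.2 CPM (13.1 to 19.8) in 513 deep dermis-like cells (1.89, 1.68 to 2.10). *Bmp4* was at 75.2 against 25.01 CPM (1.28, 1.07 to 1.49). *Bmp2* was at 4.62 against 26.7 CPM (-1.33, -1.54 to -1.09), and *Bmp5*, at 2.07 against 12.1 CPM, differed by -0.87. The antagonist *Nog* was at 10.2 against 3.10 CPM (0.62, 0.37 to 0.84). *Fst* was at 14.02 against 4.83 CPM (0.70, 0.43 to 0.93). Both were higher in the upper dermis without being called. The ligand *Bmp4* and the antagonists *Grem1*, *Nog* and *Fst* thus had higher levels on the upper side, and the ligands *Bmp2* and *Bmp5* on the deep side. In the sub-clusters *Grem1* ran from 75.8 to 144 CPM in the upper dermis and from 8.39 to 26.3 CPM in the deep dermis. *Bmp4* ran from 54.2 to 184 CPM and from 13.6 to 40.4 CPM. Dermal-like sub-clusters given to neither layer had *Grem1* at 59.1, 62.5 and 22.2 CPM and *Bmp4* at 108.9, 60.8 and 21.2 CPM. All of these sub-clusters come from 1 library.

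At E16.5, 2 of 8 members were called higher in upper dermis-like cells, where 1.47% of 11338 genes were, and 0 lower, where 2.45% were. These were again *Bmp4*, at 52.4 against 17.8 CPM (1.17, 1.01 to 1.32), and *Grem1*, at 13.7 against 1.47 CPM (1.05, 0.90 to 1.16), the latter at 0.89 at resolution 2 and 0.84 with cells of at least 2500 genes. *Nog* was at 26.6 against 10.4 CPM (0.84, 0.66 to 1.01), and *Bmp3*, the member furthest to the deep side, at 2.27 against 10.1 CPM (-0.71). Of the 137 *Bmp3* UMIs of the deep dermis, 89 lay in the sub-cluster of 35 cells named above, and without it the deep level was 3.64 CPM (-0.15).

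At P0, 1 of 7 members was called higher in the upper dermis, where 3.54% of 10069 genes were, and 0 lower, where 2.59% were, and the median of all genes compared was 0.16. *Bmp4* was at 67.6 against 18.8 CPM (1.43, 1.22 to 1.64), and *Grem1* at 15.9 against 9.15 CPM (0.43). The *Bmp4* levels of the P0 sub-clusters overlapped, from 27.7 to 464 CPM in the upper and from 13.6 to 44.5 CPM in the deep dermis. The 464 CPM was that of the 60 cells named above. Without those cells *Bmp4* was at 52.7 against 18.8 CPM (1.12).

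The levels of the stages were also set side by side. In dermal-like cells *Grem1* was at 52.9, 7.08 and 11.6 CPM in stage order, and in upper dermis-like cells at 87.4, 13.7 and 15.9 CPM. *Fst* was at 8.74, 44.5 and 87.9 CPM in dermal-like and at 25.1, 199 and 234 CPM in epithelial-like cells. Both genes thus had an E13.5 level outside the later intervals, in opposite directions. Among lower levels, dermal-like *Bmp3* was at 1.93, 23.6 and 36.4 CPM and *Bmp5* at 7.84, 0.216 and 0.118 CPM. The later *Bmp3* levels rested on condensate-like and papilla-like cells, which were not named at E13.5. Leaving these cells out lowered them to 5.51 and 4.24 CPM. Upper dermis-like *Bmp3* was at 0.637, 2.27 and 4.55 CPM in stage order. Between the 2 later stages the dermal-like *Bmp3* log2 difference was 0.46, and 0.06 when each cell had the same weight. Epithelial *Bmp4* was lowest at E16.5, with 14.3, 6.67 and 40.6 CPM. Between condensate-like cells of E16.5 and papilla-like cells of P0, *Nog* was at 8.52 and 50.1 CPM (log2 difference 1.70, 1.32 to 2.04), *Bambi* at 8.52 and 40.7 CPM (1.45) and *Bmp7* at 195 and 505 CPM (1.33). Each of these sets 1 library beside another, and the condensate-like and papilla-like groups pool sub-clusters with unlike levels.

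The other genes of the pathway were taken from lists of 10 further ligands, 20 extracellular modulators, 9 receptors, 8 Smad genes and 8 response genes found in the table, and counted as above. In the P0 papilla-like comparison, where 5.33% of all genes were called higher and 3.32% lower, 2 of 3 further ligands with enough UMIs were called higher, *Inhba*, which encodes an activin subunit bound by follistatin, at 425 against 10.9 CPM, and *Gdf10*, a relative of *Bmp3*, at 235 against 2.51 CPM. Of 8 response genes, 5 were called higher and 0 lower, among them *Id3* at 717 against 114 CPM, *Id1* at 303 against 60.8 CPM and *Hey1* at 140 against 6.87 CPM. Of 17 modulators, 2 were called higher (*Kcp* and *Vwc2*) and 2 lower, among them *Nbl1* at 184 against 500.0 CPM. None of 8 receptors and 1 of 7 Smad genes, the inhibitory *Smad7*, was called higher, with 0 lower in both.

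In the E16.5 condensate-like comparison, with 2.35% of all genes called higher and 2.08% lower, *Inhba* was called higher, at 170 against 12.9 CPM, and *Inhbb* lower, at 3.01 against 23.0 CPM, of 4 further ligands. Of 17 modulators, 1 was called higher, *Sost*, at 20.8 against 0.21 CPM, and 1 lower. Of 6 response genes, *Hey1* was called higher, at 53.1 against 9.93 CPM, and *Id2* lower, at 110 against 249 CPM. Of 8 receptors, 0 were called in either direction, and *Smad7* was the 1 of 7 Smad genes called, at 49.6 against 14.2 CPM.

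In the epithelium the modulator *Sostdc1*, which binds Bmps and Wnt co-receptors, was at 361 CPM at E16.5, against 46.1 CPM in dermal-like cells, and at 577 against 48.6 CPM at P0, while the E13.5 levels were 41.5 and 45.04 CPM. In the E13.5 placode-like cells it was one of 4 of 7 modulators called higher (2.92% of all genes compared were). Its level was 120 CPM, against 14.5 CPM in the periderm-like and suprabasal-nearest cells described above. Of 4 response genes compared there, *Id2* and *Id3* were called higher and *Id1* and *Msx2* lower (7.14% of all genes were), with *Id1* at 71.2 against 310 CPM. In the P0 follicle *Msx1*, at 37.2 against 2.90 CPM, and *Msx2*, at 41.6 against 13.54 CPM, were the 2 of 7 response genes called higher, where 0.516% of all genes were.

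As a last description, each member was correlated with the other genes over the 26 lineage groups of at least 50 cells, on log2(CPM + 10), and 14416 genes were ranked. Groups of a stage share a library and its free RNA, so the coefficients carry no test. Among the 3 closest genes of each were *Cpxm1* (r = 0.92) and *Gpc3* (0.90) for *Bmp4*, *Alpl* (0.91) and *Hhip* (0.90) for *Bmp3*, *Klf5* and *Wnt6* (0.85 each) for *Bmp7*, and *Car12* (0.82) for *Bmp2*. *Hhip* is itself one of the condensate markers used to name cells. For the antagonists they included *Edn3* (0.87) for *Nog*, *Cdh7* (0.92) for *Grem1* and *Ctnnal1* (0.90) for *Fst*, and for *Bambi* *Tjp1* (0.85), *Ccnyl1* (0.84) and *Ephb4* (0.83). *Bmp5* was closest to *Fgf18* (0.91). Among the members, the highest coefficients were those of *Nog* with *Bmp4* (0.71) and with *Bmp3* (0.67), and of *Bmp7* with *Bmp2* (0.65), and the lowest was that of *Fst* with *Grem1* (-0.35).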

How the data were processed

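Single-cell 3′ RNA of E13.5, E16.5 and P0 back skin was aligned by the authors with Cell Ranger 2.2.0 to mm10, per the labels. The deposited table held natural log values, ln(1 + 10000 × UMIs / total UMIs of the cell), which the authors made for 16235 cells with at least 1750 genes, more cells than the study describes. Every value above 0 returned to a whole UMI (within 0.001), and these UMIs were used. Cells of each library were clustered with scanpy 1.11.5 and leidenalg 0.10.2 (Python 3.11.15; 2000 variable genes, 30 components, 15 neighbours, resolution 1) and named as X-like where at least 3 markers of a list were 2-fold higher, epithelial and condensate sub-clusters also only with 0.667 of the list, and upper or deep dermis by a gap of 0.4 between their mean log2 differences. Clusters that met a list but also carried another lineage, or were led by marker genes of another cell class, were left unnamed or mixed. Among them were 644 cells at E13.5 with 10 of 10 dermal markers and 94 at E16.5 with 5 of 7 follicle sheath markers. At P0 they included 188 cells with 6 of 6 basal epidermis markers. The members and lists were chosen with earlier results of these data known, and the naming thresholds were set after the clusters were seen. Scrublet called 0, 84 and 106 doublets, which were kept, and was taken as not working at E13.5. UMIs were summed per group, and differences were taken on log2(CPM + 10) with conditional exact binomial intervals. With 1 library per stage no test was made. Named genes were the members, the listed pathway genes and the 3 closest genes per member, of which some are printed and some are not reported here. Gene positions were from GENCODE vM21. Scripts were tested on simulated data.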

Additional observations from a re-analysis of the deposited data

How the results depend on the processing

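Every comparison was repeated at other clustering resolutions, on cells with at least 2500 genes, without called doublets, with equal weight per cell, with 1 CPM added and with mixed sub-clusters kept (the last added after seeing the data), and the dermal-like against epithelial-like comparison also with cells assigned by marker shares. Of 684 member values so obtained, 467 lay within the counting interval of the reported value, 217 moved outside it and 0 reversed a called difference. Of 270 called values, 247 stayed at 2-fold or more and 270 kept their sign. With 1 CPM added, the counts of members called became 4 higher and 2 lower for dermal-like cells and likewise 4 higher and 2 lower for upper dermis-like cells at E13.5, 2 lower for condensate-like cells and 1 lower for upper dermis-like cells at E16.5, and 1 lower for papilla-like cells at P0. With mixed sub-clusters kept, 1 was higher in E13.5 dermal-like cells and 1 in the P0 follicle epithelium. In E16.5 upper dermis-like cells 1 was higher at resolution 2 and 1 with at least 2500 genes. At P0, 2 were higher in dermal-like cells at resolution 0.5 and 2 by marker shares, 1 was higher in follicle epithelium at resolution 0.5, at resolution 2 and without doublets, and 2 were higher in upper dermis-like cells under the same 3 settings. Further settings added after seeing the data left out groups of cells: at P0, 2 were higher in dermal-like cells without papilla-like cells, and 1 in follicle epithelium without the other epithelial cells nearest to a follicle list. The cause of these changes was not tested. No value was obtained for the E13.5 follicle epithelium at resolution 2 or with 2500 genes, for the E16.5 upper dermis at resolution 0.5, or for the P0 papilla-like cells at resolution 0.5, since a group was not found. Thinning to 3500 UMIs moved 161 of 164 shares of cells. No paired analysis was possible because each stage has 1 library and the comparisons come from no test, and no replicate could be left out.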

Other observations

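Cells left unnamed or mixed entered no comparison. At E13.5 the 1516 such cells had *Bmp4* at 49.6 CPM, *Bmp7* at 26.9 CPM and *Grem1* at 25.3 CPM, close to the whole library at 50.2, 24.3 and 26.5 CPM. At E16.5 the 142 such cells had *Fst* at 222 CPM, *Bmp7* at 143 CPM and *Bmp2* at 37.9 CPM, and at P0 the 337 such cells had *Fst* at 197 CPM, *Bmp7* at 117 CPM and *Bmp2* at 69.7 CPM. In these later cells the members with the highest levels were those of the epithelial-like cells.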
